A study of Caenorhabditis elegans with 63 samples.

Results

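The mir-1829 family of Caenorhabditis elegans consists here of 3 hairpins, mir-1829a, mir-1829b and mir-1829c, which give 6 of the 276 mature microRNA (miRNA) arms and 3 of the 138 hairpins in each of the 2 count tables. The rows were selected by their name alone, as all rows whose hairpin name starts with mir-1829. The family itself was picked with earlier results of these libraries in view, and which comparison prompted the choice is not recorded, so the adjusted p-values below describe the fits over all arms and are no independent evidence for the family. Small RNA of whole worms grown at 20 °C was sequenced to compare mutants of drsh-1, the worm gene for Drosha. Of 63 libraries in 23 groups, the NEBNext kit gave 22. These cover the alleles drsh-1 (cdb328) I and drsh-1 (cdb330) I beside wild type, at the L4 larval stage and in Adults (n = 3 per group), and 2 tagged Adult groups (n = 2 each). The tagged groups are drsh-1::gfp;tdp-1::mScarlet and the same genotype over drsh-1(null), so both carry the GFP and mScarlet tags. The other 41 libraries used adaptors with degenerate bases, called bias-minimized. They comprise Adults of the same 3 genotypes (n = 3 each) and a series on mir-80 with 12 groups of 2 or 3 libraries, here the mir-80 series: mir-80 wild type and the alleles mir-80(cdb493), mir-80(cdb494), mir-80(cdb495) and mir-80(cdb496), each with drsh-1 intact or with drsh-1(cdb263 cdb328), and mir-80(cdb530) with drsh-1 intact or with drsh-1(cdb328). The labels do not say what sequence each allele changes, give no stage for the mir-80 series, and do not say whether replicates were separate cultures. The p-values therefore measure the spread between these samples, which may be technical.

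A miRNA is cut out of a long primary transcript by Drosha, trimmed by Dicer to a short duplex, and loaded as 1 strand into an Argonaute protein, which it guides to target messages. Both strands can be sequenced, one from the 5′ side (5p) and one from the 3′ side (3p) of the hairpin, and the star in a name marks the strand that the files name as the rarer. Many hairpins lie within introns of protein-coding genes and are made from the host's transcript or from their own. Mirtrons form a special class of them, whose hairpin ends are set by splicing, so that Drosha is not needed.

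All 3 hairpins lie on the X chromosome, on the strand of a host gene and inside 1 of its introns (WBcel235). The hairpin of mir-1829a (WBGene00077705, X:15588311-15588370, minus strand, 60 bases) lies in intron 5 of 5 of gas-1, which encodes a subunit of mitochondrial complex I. That of mir-1829b (WBGene00077706, X:14977119-14977178, plus strand, 60 bases) lies in intron 2 of 5 of F20D1.3. That of mir-1829c (WBGene00077707, X:15236362-15236423, minus strand, 62 bases) lies in intron 20 of 22 of piki-1, a phosphoinositide 3-kinase gene. None of them reaches a splice site. The introns measure 1552, 844 and 1861 bases, and the hairpins start 330, 435 and 1184 bases after the 5′ splice site and end 1162, 349 and 615 bases before the 3′ splice site, in the order a, b, c. By this position none is placed as a mirtron is, where both ends of the hairpin coincide with the ends of the intron. The coordinates are those of the Ensembl annotation, since the tables name no genome build. Apart from the family and the mirtron mir-62, 29 of the 139 hairpins found in either table lie on the host's strand inside an intron of a protein-coding gene, 18 on the opposite strand inside one, and 83 outside protein-coding genes.

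NEBNext libraries held 1891780 to 5565918 miRNA reads, bias-minimized Adults 578859 to 2585561, and the mir-80 series 155736 to 2355231. The family took 0.0267% to 0.0952% of the miRNA reads with NEBNext and 0.0835% to 0.370% with bias-minimized adaptors. Levels are given as CPM, counts per 1000000 miRNA reads of a library, with the 10 spike-in RNAs left out. drsh-1 itself is not among the RNAs measured, so these libraries do not check its alleles. As a check of the labels in the mir-80 series, mir-80-3p lay at 62624 CPM or more in the 6 libraries with wild-type mir-80 and at 46356 CPM or less in the 26 with a mir-80 allele. In whole worms, fewer cells that make a miRNA and less of it per cell cannot be told apart.

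The 2 library protocols gave the family a different make-up. With NEBNext both arms of mir-1829a led: over the 22 libraries mir-1829a-5p ran from 78.2 to 299 CPM (median 142) and mir-1829a-3p* from 63.4 to 283 CPM (median 108). With bias-minimized adaptors mir-1829b-5p led by far, at 449 to 2821 CPM (median 1175) over the 41 libraries, followed by mir-1829c-5p at 137 to 722 CPM (median 291). Both arms of mir-1829a had a median near 50 CPM there (49.7 for 5p and 49.8 for 3p*), and the 3p* arms of mir-1829b and mir-1829c were the rarest, at 3.08 to 45.7 and 3.46 to 40.2 CPM.

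mir-1829b-5p shows the size of this difference. In wild-type Adults it measured 20.3 ± 6.12 CPM (SD, n = 3) with NEBNext and 1151 ± 57.9 CPM (n = 3) with bias-minimized adaptors, a ratio of 56.6. The ratio was 57.9 in cdb328 and 59.0 in cdb330 Adults. Among the 146 arms with at least 10 CPM in wild-type Adults by both protocols the median ratio was 0.954, and mir-1829b-5p had the tenth highest. mir-1829c-5p was 3.54 times as high with bias-minimized adaptors in wild type, while mir-1829a-5p, mir-1829a-3p*, mir-1829b-3p* and mir-1829c-3p* were 2.97, 2.49, 5.85 and 3.69 times as high with NEBNext. The tables were normalized separately and no test was made across them. The library names of the 9 bias-minimized Adults repeat those of the NEBNext Adults of the same genotype and replicate number with a suffix. The labels do not say whether the same RNA was used, so the Adult comparisons by the 2 protocols may share their worms.

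The more abundant arm of mir-1829b differed between the protocols. Its 5p arm took 11.6% to 46.6% of the hairpin's reads in the NEBNext libraries (median 26.3%) and 94.7% to 99.7% in the bias-minimized ones (median 98.8%). In NEBNext data the starred arm was thus the more abundant in all 22 libraries. mir-1829c-5p took 37.7% to 74.4% with NEBNext (median 58.4%) and 87.7% to 98.6% with bias-minimized adaptors (median 94.7%). mir-1829a stayed near balance with both, with 45.5% to 65.7% (median 55.1%) and 28.6% to 62.5% (median 47.1%) in the 5p arm. The lowest of these shares, 28.6% in cdb328 replicate 2 on mir-80(cdb530), rests on 14 reads of the 5p arm and 35 of the 3p* arm.

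The 3p* arms of mir-1829b and mir-1829c had nearly the same counts in each NEBNext library. Their ratio ran from 0.753 to 1.21 over the 22 libraries (median 0.960), while the arms themselves ranged from 16.6 to 122 CPM and from 18.3 to 128 CPM. The 5p arms of these hairpins did not go together in this way: the ratio of mir-1829b-5p to mir-1829c-5p ran from 0.160 to 0.551 with NEBNext and from 0.886 to 8.10 with bias-minimized adaptors. In the bias-minimized libraries, where 1 to 50 reads stood behind each 3p* value, the ratio of the 3p* arms ran from 0.25 to 5 (median 0.8). No source used here says how reads that match several arms were counted, so these 2 arms are uncertain as separate measurements. Of the family's values, 8 lay midway between whole numbers, in both arms of mir-1829b in 3 NEBNext libraries and in both arms of mir-1829a in 1, and none in mir-1829c or in the bias-minimized table.

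**Figure D1:**
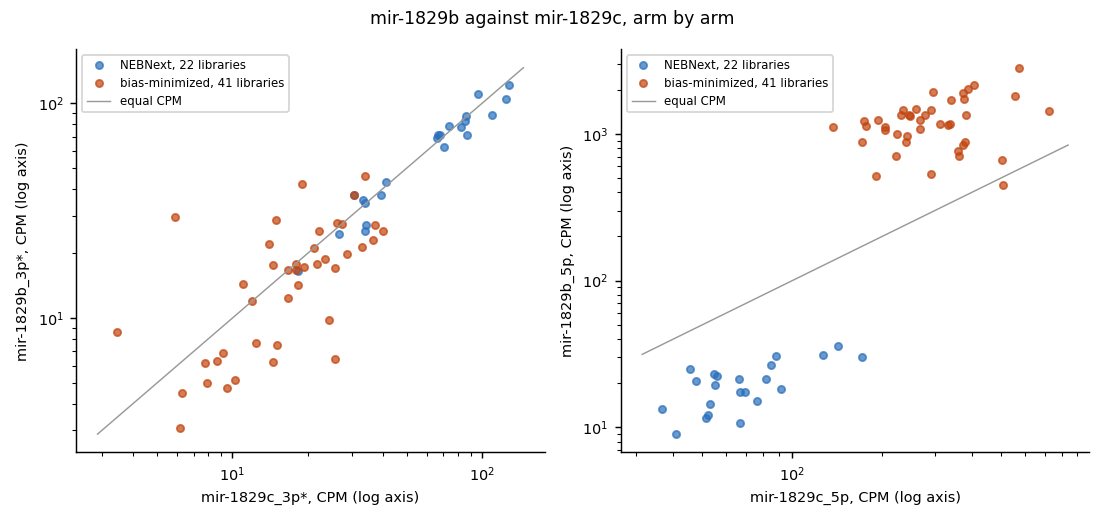
CPM of the 3p* arms (left) and the 5p arms (right) of mir-1829b against mir-1829c, 1 point per library, on log axes, with a line of equal CPM. The 3p* arms lie along the line with NEBNext, where their ratio stays between 0.753 and 1.21, whereas the 5p arm of mir-1829b lies below the line with NEBNext and above it in nearly all bias-minimized libraries.

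In cdb328 L4 worms both arms of mir-1829a and the 5p arms of mir-1829b and mir-1829c were higher than in wild type, and the 3p* arms of mir-1829b and mir-1829c were not. mir-1829a-3p* measured 121, 126 and 107 CPM in the wild-type libraries and 225, 283 and 244 CPM in cdb328, so that the lowest mutant library lay well above the highest wild-type one. mir-1829a-5p measured 152, 188 and 163 CPM against 268, 299 and 291 CPM, again without overlap. mir-1829c-5p measured 87.9, 91.7 and 81.7 CPM against 127, 171 and 142 CPM. mir-1829b-5p, by contrast, overlapped, with 30.5, 18.3 and 21.4 CPM against 31.3, 30.4 and 36.0 CPM, the second mutant library falling just below the highest of wild type.

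Fold changes were fitted by edgeR with TMM scaling, which holds the bulk of the arms constant, and the quasi-likelihood test with Benjamini-Hochberg adjustment over all 215 arms tested. The log2 fold change (± SE, n = 3 per group) was 1.27 ± 0.12 for mir-1829a-3p* (2.41-fold, adjusted p of 4.82e-09), 0.95 ± 0.13 for mir-1829a-5p (1.75e-06), 0.93 ± 0.14 for mir-1829c-5p (3.88e-06) and 0.66 ± 0.23 for mir-1829b-5p (0.0193). It was -0.065 ± 0.20 for mir-1829b-3p* (0.835) and -0.24 ± 0.17 for mir-1829c-3p* (0.229), although the CPM of the latter did not overlap (85.8 to 96.4 in cdb328, 110 to 128 in wild type). Thus 4 of the 6 arms were called higher and 0 lower, where 57.2% of all arms were called in either direction and 31.2% higher. The median of the 6 was 0.80 against 0.038 over all arms. With scaling to the spike-ins, which lowered the log2 fold changes of this comparison by a median of 0.29, mir-1829a-3p* (0.99, adjusted p of 1.33e-05), mir-1829a-5p (0.66, 0.00477) and mir-1829c-5p (0.65, 0.00738) were still called higher, mir-1829b-5p was not (0.38, 0.273), and mir-1829c-3p* was called lower (-0.54, 0.0349). The call of mir-1829b-5p was also lost without wild type replicate 2 (0.38, adjusted p of 0.242), wild type replicate 3 (0.63, 0.0508) or cdb328 replicate 3 (0.58, 0.0762).

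In Adults the same 3 arms were higher in cdb328 with NEBNext. mir-1829a-3p* measured 70.4, 86.3 and 102 CPM in wild type and 172, 151 and 148 CPM in cdb328. mir-1829a-5p measured 95, 78.2 and 86.4 against 144, 141 and 160 CPM, and mir-1829c-5p 36.5, 45.5 and 55.9 against 84.6, 69.4 and 66.5 CPM. For each of these arms all 3 mutant libraries lay above all 3 of wild type, a separation that was not counted over all arms. The log2 fold changes were 0.77 ± 0.13 (adjusted p of 1.56e-05), 0.67 ± 0.14 (0.000274) and 0.59 ± 0.15 (0.00191) by the same edgeR test, which are 1.71-fold, 1.59-fold and 1.5-fold. mir-1829b-3p* (0.27 ± 0.24), mir-1829c-3p* (0.23 ± 0.20) and mir-1829b-5p (0.0076 ± 0.25) were not called. So 3 of 6 arms were higher and 0 lower, against 49.3% of all arms called and 18.1% called higher, with a median of 0.43 beside -0.032 over all arms. With spike-in scaling (median shift -0.15) mir-1829c-5p lost its call (0.45, adjusted p of 0.0986).

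The cdb328 effect did not pass a test of difference between the stages in any of the 6 arms. The interaction (Adult effect minus L4 effect) was -0.50 ± 0.17 for mir-1829a-3p* (adjusted p of 0.0868), the nearest of the 6 to the threshold, and ran from -0.66 to 0.47 over the arms, while 3.26% of all arms were called in this edgeR contrast.

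**Figure D2:**
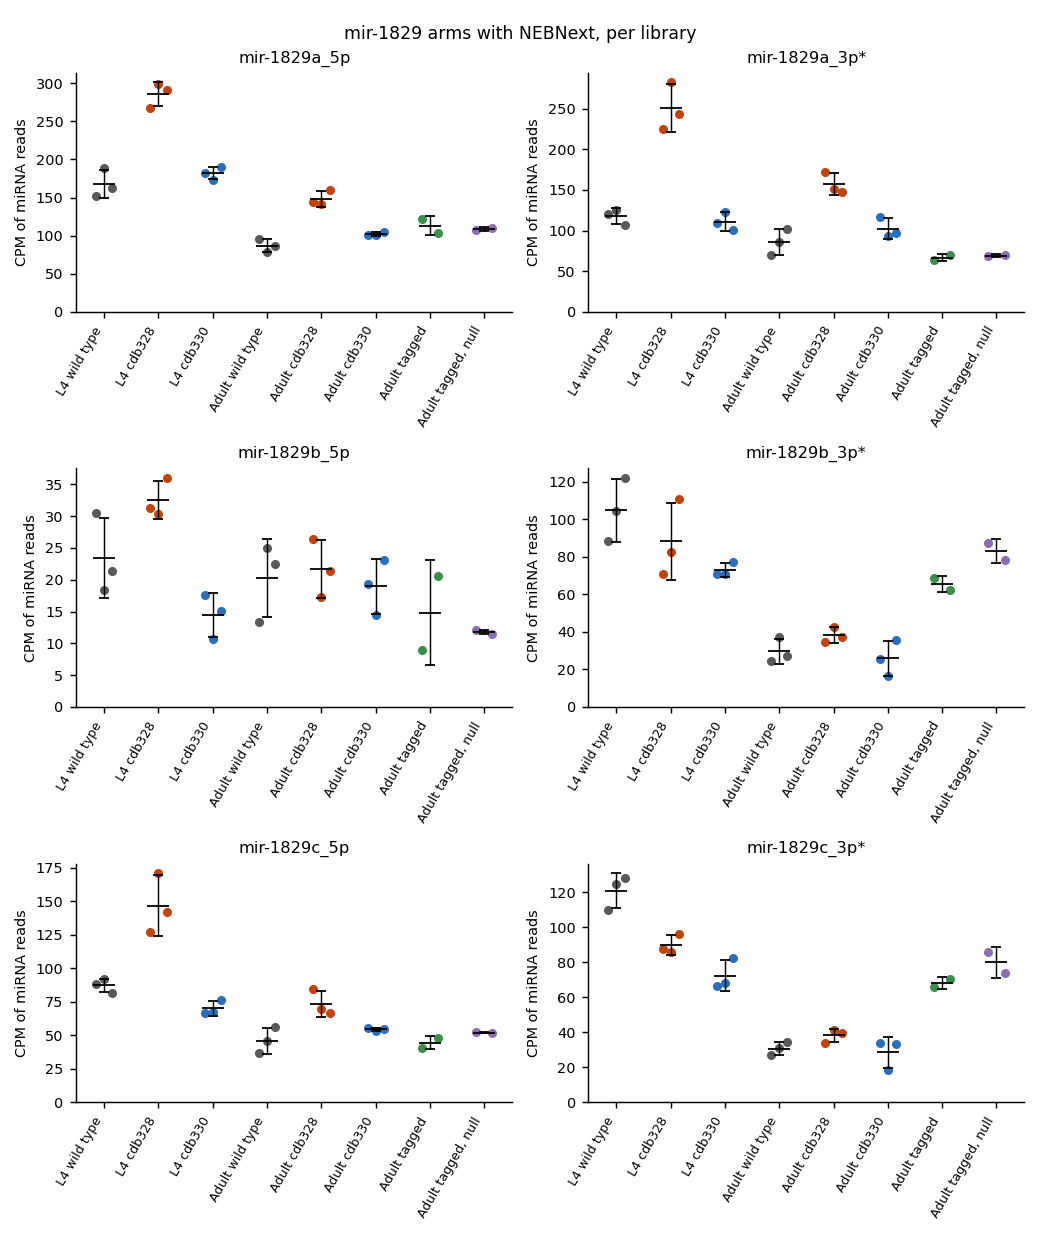
CPM of the 6 arms in each NEBNext library by stage and genotype, with the mean and SD of each group (n = 3, tagged groups n = 2). The cdb328 libraries stand above wild type of their stage for both arms of mir-1829a and for mir-1829c-5p, and the 3p* arms of mir-1829b and mir-1829c are lower in the untagged Adults than in L4 worms.

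With bias-minimized adaptors the same 3 arms were called higher in cdb328 Adults. mir-1829c-5p measured 174, 176 and 137 CPM in wild type and 232, 268 and 245 CPM in cdb328, without overlap. mir-1829a-3p* measured 39.4, 24.2 and 40.3 against 49.8, 62.2 and 48.4 CPM, also without overlap but on 27 to 109 reads per library. mir-1829a-5p overlapped, at 32.7, 27.8 and 26.9 against 38.7, 47.4 and 31.1 CPM. mir-1829b-5p, the most abundant arm here, was at 1217, 1123 and 1112 CPM in wild type and at 1351, 1073 and 1353 CPM in cdb328, which overlap.

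By edgeR's test over 191 arms the log2 fold changes were 0.74 ± 0.15 for mir-1829c-5p (adjusted p of 0.00569), 0.76 ± 0.24 for mir-1829a-3p* (0.0308), 0.55 ± 0.16 for mir-1829a-5p (0.024), 0.26 ± 0.13 for mir-1829b-5p (0.124) and -0.030 ± 0.39 for mir-1829c-3p* (0.974). Of the 6 arms, 5 passed the filter on low counts and 3 of them were called higher, where 49.2% of all arms were called and 24.1% called higher. mir-1829b-3p*, at 5 to 12 reads in these 6 libraries, did not pass the filter. The call of mir-1829c-5p held without any single library. That of mir-1829a-3p* was lost without any of the 6 libraries (log2 fold changes 0.57 to 0.91, highest adjusted p 0.102), and that of mir-1829a-5p without wild type replicate 2 (0.54, adjusted p of 0.0823) or 3 (0.53, 0.0947) or cdb328 replicate 1 (0.55, 0.0657) or 2 (0.40, 0.117). No arm was called with spike-in scaling (median shift -0.51), where mir-1829a-3p* had 0.26, mir-1829a-5p 0.048, mir-1829c-5p 0.21 and mir-1829b-5p -0.27.

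In the mir-80 series mir-1829a-3p* separated the drsh-1 mutants from their controls on nearly every mir-80 background. Over the 16 libraries with drsh-1 intact it ran from 23.7 to 59.9 CPM (median 38.4), and over the 16 with a drsh-1 mutation from 35.3 to 141 CPM (median 79.4). Of the mutant libraries, 15 lay above the highest intact one, the exception being replicate 2 of cdb263 cdb328 on mir-80(cdb494). By group means, all 6 mutant groups lay above all 6 intact groups. The same held for the group means of mir-1829a-5p, where 10 mutant libraries lay above the highest intact one. For the other arms of the family, 2 or 3 of the 6 mutant group means did so. How many of all arms separate in this way was not counted. For mir-1829a-3p* the intact groups followed each other closely, from 48.6 ± 3.91 CPM (SD, n = 2) in mir-80(cdb494) to 37.9 ± 1.83 (n = 2) in mir-80(cdb495), each within the spread of its neighbour. The mutant groups ran from 97.9 ± 13.8 (n = 3) on wild-type mir-80 to 69.8 ± 1.63 (n = 3) on mir-80(cdb495), likewise each within the spread of the next.

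Against the control of its own background, mir-1829a-3p* had a log2 fold change of 1.18 ± 0.30 on wild-type mir-80 (edgeR over 207 arms, adjusted p of 0.00716, n = 3 per group), where the libraries were at 37.6, 51.6 and 32.5 CPM with drsh-1 intact and 108, 103 and 82.3 CPM in the mutant. On mir-80(cdb493) it had 1.03 ± 0.33 (adjusted p of 0.0285), with 37.5, 47.1 and 35.3 against 67.7 and 102 CPM. On mir-80(cdb495) the value was 1.12 ± 0.34 (0.0182), with 36.6 and 39.2 against 71.4, 68.2 and 69.8 CPM. The libraries did not overlap on any of these backgrounds. On mir-80(cdb496) it was 0.97 ± 0.30 (0.0236), with 43.5, 59.9 and 29.1 against 72.1, 85.4 and 88.6 CPM, and for cdb328 on mir-80(cdb530) 1.05 ± 0.34 (0.0226), with 23.7, 57.2 and 36.6 against 89.3 and 67.3 CPM, also without overlap. Only on mir-80(cdb494) was it not called (0.66 ± 0.35, adjusted p of 0.226), since the mutant libraries there were at 141, 35.3 and 76.4 CPM, on both sides of the 45.8 and 51.4 CPM of the controls.

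The single calls in the mir-80 series rest on few libraries. On wild-type mir-80 the call of mir-1829a-3p* held without any single library. On mir-80(cdb495) it was lost without drsh-1 intact replicate 1 (1.23, adjusted p of 0.0601). On mir-80(cdb493) it was lost without 4 of the 5 libraries (intact replicates 1 and 3 and both mutant replicates, highest adjusted p 0.216), on mir-80(cdb496) without 4 of the 6 (replicates 1 and 3 of both groups, highest 0.0961), and on mir-80(cdb530) without 4 of the 5 (intact replicates 1 and 3 and both mutant replicates, highest 0.186).

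The other arms were called on fewer backgrounds. mir-1829a-5p had positive log2 fold changes on all 6 backgrounds (0.45 to 1.10) and was called on mir-80(cdb494), with 1.10 ± 0.35 (adjusted p of 0.0271), and for cdb328 on mir-80(cdb530), with 1.03 ± 0.34 (0.0248). The latter turned to -0.063 without cdb328 replicate 1, which had 87.0 CPM beside 26.9 CPM in replicate 2, and was also lost without intact replicate 1 (1.00, adjusted p of 0.0600) or 2 (1.03, 0.0578). On mir-80(cdb494) the call was lost without mutant replicate 1 (1.07, adjusted p of 0.0795) or 3 (0.99, 0.0758) or intact replicate 2 (0.79, 0.245). mir-1829c-5p was called on mir-80(cdb530) alone among the 6, with 1.03 ± 0.30 (0.0128) and 171, 191 and 222 against 360 and 389 CPM, a call lost without either mutant replicate (1.02 and 0.93, 0.0779 and 0.0825). mir-1829c-3p* was called on wild-type mir-80, with 1.24 ± 0.37 (0.0197), but on 2 to 23 reads per library in the controls and 24 to 46 in the mutant. mir-1829b-3p* and mir-1829b-5p were called on none of the 6 backgrounds.

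Called higher were therefore 2 of 6 arms on wild-type mir-80 (20.8% of all arms called, 5.31% higher), 1 on mir-80(cdb493) (18.4% and 4.35%), 1 on mir-80(cdb494) (19.8% and 3.38%), 1 on mir-80(cdb495) (24.2% and 6.76%), 1 on mir-80(cdb496) (19.3% and 3.38%) and 3 on mir-80(cdb530) (30.0% and 13.0%), and no arm was lower. The average of the cdb263 cdb328 effect over the 5 backgrounds that carry it, a contrast added after seeing the data, was 0.99 ± 0.15 for mir-1829a-3p* (adjusted p of 4.69e-06), 0.72 ± 0.14 for mir-1829a-5p (0.00018) and 0.36 ± 0.13 for mir-1829c-5p (0.0249). It was 0.37 ± 0.21 for mir-1829b-5p (0.154), 0.24 ± 0.18 for mir-1829c-3p* (0.291) and 0.23 ± 0.23 for mir-1829b-3p* (0.448). In this contrast 3 of 6 arms were called higher, against 54.6% of all arms called and 23.7% called higher, and these 3 calls held without any single library. With spike-in scaling no arm was called on any single background (median shifts -0.099 to -0.58), while the average kept the call of mir-1829a-3p* (0.75, adjusted p of 0.00514; median shift -0.22) and lost those of mir-1829a-5p (0.48, 0.0534) and mir-1829c-5p (0.17, 0.476).

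**Figure D3:**
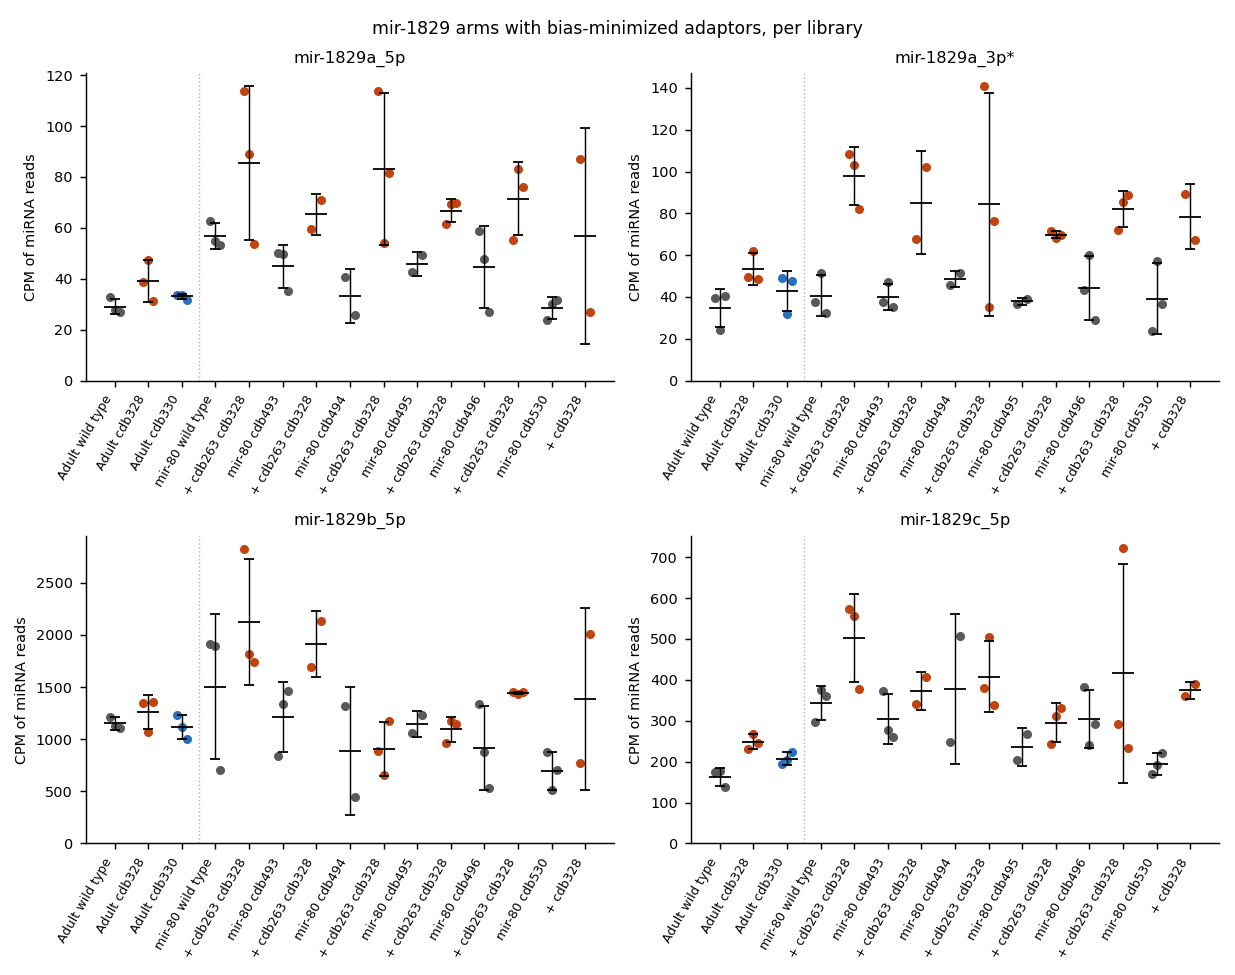
CPM of 4 arms in each bias-minimized library, with the mean and SD of each group (n = 2 or n = 3). Grey points have drsh-1 intact, orange points cdb328 or cdb263 cdb328 and blue points cdb330. To the right of the dotted line, 15 of 16 orange libraries of mir-1829a-3p* and 10 of 16 of mir-1829a-5p lie above the highest grey one of their arm.

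Counted over the 9 comparisons of a genotype containing cdb328 with its own control, mir-1829a-3p* had a positive log2 fold change in 9 (0.66 to 1.27, median 1.03) and was called higher in 8. Its libraries did not overlap in 8, a count that was not made over all arms. Of the 179 arms tested in all 9 comparisons, 2 were called higher in at least 8, the other being mir-64-5p, which was called higher in all 9. The hairpin of mir-64 also lies on the host's strand inside an intron of a protein-coding gene. mir-1829a-5p was positive in 9 and called in 5, and mir-1829c-5p positive in 9 and called in 4. mir-1829b-5p was called in 1 of 9, mir-1829c-3p* in 1 of 9 and mir-1829b-3p* in 0 of the 8 in which it was tested. On the spike-in scale mir-1829a-3p* stayed positive in all 9 comparisons (0.26 to 1.04) and was called in 2, the NEBNext ones. Over the 179 arms, 29 were positive in all 9, 9 were called higher in at least 5 and 20 in at least 4. The 9 are not all independent, since the Adults of the 2 protocols share library names. These counts were made after the values were seen.

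**Figure D4:**
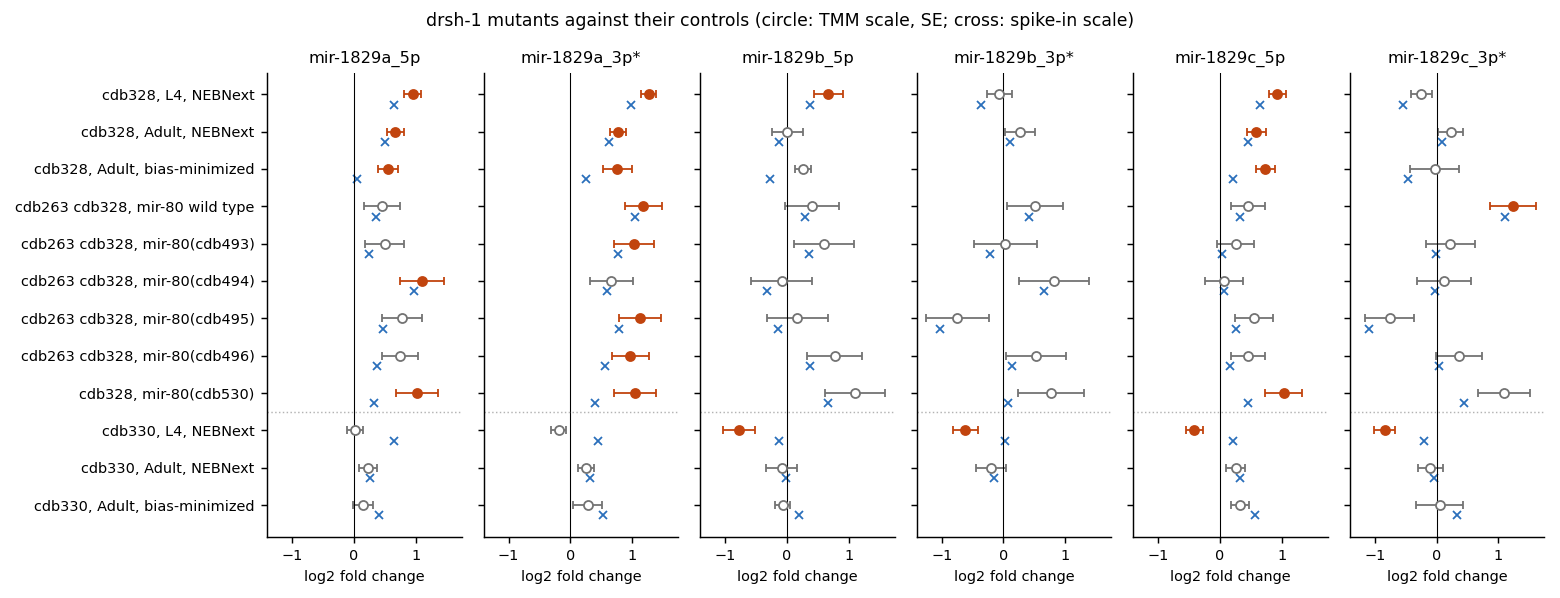
Log2 fold change of each arm in the 9 comparisons with cdb328 (above the dotted line) and the 3 with cdb330 (below it). Circles with SE are on the TMM scale, filled where edgeR's adjusted p is below 0.05, and crosses mark the same value on the spike-in scale. mir-1829a-3p* is positive in every comparison above the line on both scales.

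drsh-1(cdb330) gave another pattern at L4, where the arms of mir-1829b and mir-1829c were lower and those of mir-1829a were not. mir-1829c-3p* measured 66.4, 68.1 and 82.4 CPM in cdb330 against 110, 125 and 128 CPM in wild type. mir-1829b-3p* measured 70.9, 70.9 and 77.3 against 88.3, 104 and 122 CPM, and mir-1829b-5p 17.5, 10.7 and 15.2 against 30.5, 18.3 and 21.4 CPM. All libraries of the mutant lay below those of wild type for these arms and for mir-1829c-5p (66.8, 66.9 and 76.2 CPM), a separation that was not counted over all arms. The log2 fold changes were -0.84 ± 0.17 (edgeR, adjusted p of 0.000442), -0.62 ± 0.20 (0.0225), -0.78 ± 0.25 (0.0225) and -0.41 ± 0.14 (0.0265), while mir-1829a-5p had 0.019 ± 0.13 (0.957) and mir-1829a-3p* -0.19 ± 0.12 (0.266).

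Lower calls were thus 4 of 6, where 30.7% of all arms were called and 20.5% called lower. Of these 4 arms, the 3p* arms of mir-1829b and mir-1829c are uncertain as separate measurements. The direction depends on the scaling: with the spike-ins, which raised the log2 fold changes of this comparison by a median of 0.64, none of the 4 was called, mir-1829b-3p* (0.021) and mir-1829c-5p (0.22) changed sign, and mir-1829a-5p was called higher (0.64, adjusted p of 0.0039). On the TMM scale the call of mir-1829c-3p* held without any single library. That of mir-1829b-5p was lost without wild type replicate 1 (-0.50, 0.194) or cdb330 replicate 2 (-0.56, 0.135). That of mir-1829c-5p was lost without wild type replicate 1 or 2 or cdb330 replicate 1 or 2 (-0.28 to -0.40, highest adjusted p 0.208), and that of mir-1829b-3p* without wild type replicate 2 or 3 or cdb330 replicate 1 or 2 (-0.48 to -0.62, highest 0.119).

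In cdb330 Adults no arm was called with NEBNext, where 7.44% of all arms were, and the log2 fold changes ran from -0.20 to 0.25. With bias-minimized adaptors 0 of 5 arms tested were called (-0.071 to 0.32), where 0.524% of all arms were. mir-1829c-5p was nevertheless above wild type in all 3 cdb330 libraries there, at 193, 204 and 224 CPM against 137 to 176 CPM (0.32 ± 0.15, adjusted p of 0.288). The cdb330 effect on mir-1829c-5p differed between the stages with NEBNext by 0.67 ± 0.21 (Adult minus L4, edgeR interaction, adjusted p of 0.0283), being -0.41 at L4 and 0.25 in Adults. It was the only 1 of 6 arms called in this contrast, in which 16.3% of all arms were, and it was not called with spike-in scaling (0.10, adjusted p of 0.832; median shift -0.58) or without any of 7 of the 12 libraries (0.47 to 0.66, highest adjusted p 0.183). These were replicates 1 and 2 of L4 wild type and of L4 cdb330, replicates 1 and 3 of Adult wild type, and replicate 3 of Adult cdb330.

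Set directly against each other at L4, a contrast added after seeing the data, all 6 arms were higher in cdb328 than in cdb330 on the TMM scale (62.3% of all arms called, 35.3% higher). The log2 differences were 1.46 ± 0.12 for mir-1829a-3p* (adjusted p of 4.02e-10), 1.44 ± 0.25 for mir-1829b-5p (2.12e-05), 1.34 ± 0.14 for mir-1829c-5p (1.24e-08) and 0.93 ± 0.13 for mir-1829a-5p (1.5e-06). Those of the 3p* arms were smaller, at 0.60 ± 0.17 for mir-1829c (0.00447) and 0.56 ± 0.21 for mir-1829b (0.0219; lost without cdb328 replicate 3, 0.34 and 0.172, and without cdb330 replicate 1 or 2, 0.55 and 0.48). With spike-in scaling (median shift -0.93) mir-1829a-3p* alone was still called (0.55, adjusted p of 0.013), and the 3p* arms of mir-1829b (-0.38) and mir-1829c (-0.34) changed sign. In Adults 2 of 6 arms were called higher in cdb328 (40.9% called, 17.2% higher), mir-1829a-3p* with 0.52 ± 0.12 (0.00123) and mir-1829a-5p with 0.44 ± 0.14 (0.0111; lost without cdb328 replicate 3, 0.38 and 0.0558), and none with spike-in scaling (0.31 and 0.25, median shift -0.21).

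Between wild-type L4 worms and Adults, the largest stage differences in the family were in the 3p* arms of mir-1829b and mir-1829c. mir-1829c-3p* measured 110, 125 and 128 CPM at L4 and 26.8, 30.8 and 34.3 CPM in Adults, and mir-1829b-3p* 88.3, 104 and 122 against 24.6, 37.4 and 27.2 CPM. The log2 fold changes (Adult over L4) were -1.45 ± 0.18 (edgeR, adjusted p of 5.27e-07) and -1.29 ± 0.22 (2.92e-05). Smaller falls were called for mir-1829a-5p (-0.41 ± 0.14, 0.0113) and mir-1829c-5p (-0.40 ± 0.15, 0.0177). mir-1829a-3p* (0.074 ± 0.13) and mir-1829b-5p (0.32 ± 0.25) were not called, so 4 of 6 arms were lower, where 67.0% of all arms were called and 38.1% called lower.

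Scaled to the spike-ins, with a median shift of -0.77, the 4 values became -2.23, -2.05, -1.18 and -1.20, and mir-1829a-3p*, whose CPM was 117.7 ± 9.79 (SD) at L4 and 86.3 ± 16.0 in Adults without overlap, was called lower as well (-0.72, adjusted p of 0.00129). The calls of mir-1829a-5p and mir-1829c-5p on the TMM scale were each lost without 2 of the 6 libraries (Adult wild type replicate 2 for both, with L4 wild type replicate 2 for the first and Adult wild type replicate 1 for the second, adjusted p of 0.0555 to 0.0715). The 5p arm of mir-1829c took 41.9% ± 2.80 (SD) of the hairpin's reads in wild-type L4 worms and 59.7% ± 2.17 in Adults (two-sided exact permutation test, p = 0.1 with 3 libraries a group, the smallest this design allows). The 3p* share of mir-1829b was 81.5% ± 6.2 at L4 and 59.8% ± 5 in Adults (exact p = 0.1). Both shares include the 3p* arms that are uncertain as separate measurements.

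In cdb328 L4 worms the 5p arm of mir-1829c took 61.8% ± 4.17 (SD) of the reads, against 41.9% ± 2.80 in wild type (two-sided exact permutation test, p = 0.1). The mutant libraries, from 59.2% to 66.6%, did not overlap with those of wild type, from 38.9% to 44.5%. The 3p* reads in this share are uncertain as a measurement separate from mir-1829b-3p*. In cdb330 L4 worms the share was 49.2% ± 1.08, also above the wild-type range (exact p = 0.1). On wild-type mir-80 the order was the opposite, also without overlap, with 93.6% ± 0.67 in cdb263 cdb328 and 96.4% ± 1.72 in wild type (exact p = 0.1). Of 42 such comparisons of arm shares, 14 had libraries that did not overlap and 0 reached an adjusted p below 0.05 (smallest raw p 0.1, smallest adjusted p 0.494), as the number of libraries does not allow it. How often the arm shares of other hairpins did not overlap was not counted.

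The summed reads of the other hairpins were also set against those of mir-1829a. At L4 the log2 ratio of mir-1829c to mir-1829a was -0.45 ± 0.088 (SD) in wild type and -1.18 ± 0.019 in cdb328, and that of mir-1829b to mir-1829a was -1.16 ± 0.22 and -2.17 ± 0.27. In Adults these ratios were -1.19 ± 0.17 in wild type and -1.45 ± 0.079 in cdb328 for mir-1829c, and -1.81 ± 0.37 and -2.35 ± 0.062 for mir-1829b. None of these 4 pairs of groups overlapped, with cdb328 the lower each time (two-sided exact permutation test, p = 0.1 each, smallest adjusted p over 28 such comparisons 0.35). Both ratios were also lower, without overlap, in cdb330 than in wild type at L4 (difference of -0.59 for each). The same held for wild-type Adults against L4 (-0.73 for mir-1829c and -0.66 for mir-1829b, exact p = 0.1 each). Of the 28 comparisons, 13 had libraries that did not overlap. Such ratios were not formed for other hairpins, so this count cannot be set against them. The ratios were also formed from main arms alone, the arm of each hairpin with the higher mean CPM over all NEBNext libraries. These are mir-1829a-5p, mir-1829b-3p* and mir-1829c-5p, although mir-1829c-5p was the rarer arm in wild-type L4 worms (41.9% of the reads). The cdb328 difference for mir-1829c was then -0.033 in place of -0.73 at L4 and -0.088 in place of -0.26 in Adults. For mir-1829b it was -1.04 in place of -1.01 and -0.40 in place of -0.53. The cdb330 difference at L4 became -0.44 for mir-1829c and -0.63 for mir-1829b, in place of -0.59 for each. Between wild-type Adults and L4 it was 0.011 in place of -0.73 for mir-1829c, and -0.88 in place of -0.66 for mir-1829b. The stage difference of mir-1829c was thus not seen in the main arms alone. The summed reads of mir-1829b and mir-1829c include starred arms that are uncertain as separate measurements. With bias-minimized adaptors the libraries of cdb328 and wild-type Adults overlapped (differences of 0.045 for mir-1829c and -0.41 for mir-1829b, exact p = 0.8 and 0.3).

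The 4 tagged Adult libraries lay outside the range of the 9 untagged NEBNext Adults in all 3 of the 3p* arms, above it for mir-1829b and mir-1829c and below it for mir-1829a. The share of all arms that lay outside this range was not counted, so the family cannot be set against it. mir-1829a-3p* was at 63.4 and 69.4 CPM in the tagged group and 68.04 and 70.36 CPM in the group over drsh-1(null), just below the lowest untagged library at 70.41 CPM (highest 172 CPM). mir-1829b-3p* was at 68.7 and 62.3 CPM in the tagged group and 87.4 and 78.5 CPM in the group over drsh-1(null), against 16.6 to 42.9 CPM in the 9 untagged NEBNext Adults. mir-1829c-3p* was at 65.8 and 70.4 CPM and at 86.1 and 73.7 CPM, against 18.3 to 41.3 CPM. The 9 untagged L4 libraries had 70.9 to 122 CPM and 66.4 to 128 CPM of these arms. The tagged and untagged groups were not compared by a test. Between the tagged groups 0 of 6 arms were called by edgeR (-0.27 to 0.41), where 4.19% of all arms were. With spike-in scaling (median shift -0.69) mir-1829a-5p (-0.70, adjusted p of 0.0499) and mir-1829b-5p (-0.95, 0.0472) were called lower in the group over drsh-1(null).

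Values for other intronic hairpins are set beside the family here. In cdb328 L4 worms the 46 tested arms of hairpins on the strand of their host gene had a median log2 fold change of -0.12, with 10 higher and 14 lower, against 0.80 in the family. In Adults the values were -0.23 (8 higher, 16 lower) against 0.43 with NEBNext, and -0.32 (9 higher and 9 lower of 38) against 0.55 with bias-minimized adaptors. The 33 tested arms on the opposite strand had medians of 0.18 at L4 and -0.21 in NEBNext Adults. On mir-80(cdb495) the opposite-strand median was above that of the family, at 0.42 against 0.36. The mirtron list had 4 hairpins, of which mir-62 alone is in the tables. Its arm mir-62-3p, made by splicing without Drosha, rose by 1.08 ± 0.14 at L4 (adjusted p of 5.15e-07) and by 1.51 ± 0.14 in NEBNext Adults (3.12e-09), both above the family's median. With bias-minimized adaptors its rise in cdb328 Adults was 0.95 (edgeR, adjusted p of 1.92e-05), also above the family. On the single mir-80 backgrounds it was positive (0.56 to 0.82) but not called by edgeR (adjusted p of 0.0906 to 0.309). There it lay below the family's median on mir-80(cdb530) alone, at 0.71 against 1.04. The other arm, mir-62-5p*, passed the filter with bias-minimized adaptors alone and was never called. It had -0.56 in cdb328 Adults and -0.75 to 0.99 on the mir-80 backgrounds. With both arms the mirtron median in these Adults was 0.19, below the family's 0.55. On the mir-80 backgrounds it was above the family's on mir-80(cdb496) alone, at 0.86 against 0.64. The differences between these lists and the family were not tested.

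Across the 22 NEBNext libraries, the arms whose log2(CPM + 1) followed mir-1829a-5p most closely among 162 arms of at least 10 CPM outside the family were mir-1821-3p (Pearson r = 0.946), mir-1-3p (0.942) and mir-357-3p (0.919). In the 41 bias-minimized libraries their r with the same arm was 0.799, 0.484 and 0.667. Nearest to mir-1829c-5p outside the family were mir-244-5p (0.887; 0.0676 with bias-minimized adaptors), mir-357-3p (0.886; 0.814) and mir-259-3p* (0.882; -0.313). Nearest to mir-1829b-3p* outside it were mir-57-5p (0.893; 0.497), mir-48-5p (0.849; 0.571) and let-7-5p (0.833; 0.572). Within the family, r was 0.975 between the 3p* arms of mir-1829b and mir-1829c (0.658 with bias-minimized adaptors). mir-1829c-5p had 0.912 with mir-1829a-3p* (0.532) and 0.904 with mir-1829a-5p (0.627). With NEBNext these lay above the outside arms named for mir-1829b-3p* and for mir-1829c-5p. All arms named for mir-1829a-5p, however, lay above its 0.904 with mir-1829c-5p. With bias-minimized adaptors both values of mir-1829c-5p lay below its 0.814 with mir-357-3p. These values are descriptions: the libraries fall into 8 groups of stage and genotype, and share their depth and scaling within a library.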

How the data were processed

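Small RNA libraries of whole worms were made with the NEBNext kit or with degenerate adaptors, per the labels. The authors deposited 1 table per protocol, with reads per mature arm and for 10 spike-ins. As deposited, the values are expected counts (an estimated count may be fractional): 4.81% of the NEBNext and 1.47% of the bias-minimized values lie midway between whole numbers, and all were rounded. The submitters' processing notes name HTSeq. No version of it, aligner, build or rule for multiply matching reads is given in the sources used.

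Groups came from the labels. The 57 pairs of libraries within groups differed by more than sampling noise (lowest chi-square per degree of freedom 17.5). edgeR 4.0.16 in R 4.3.3 was used with TMM scaling (spike-ins left out), glmQLFit and glmQLFTest on arms that pass filterByExpr at a minimum count of 10 and total of 15, with Benjamini-Hochberg adjustment over all arms tested and a threshold of 0.05. It was fitted to 18 NEBNext libraries (215 arms), all 22 for the tagged groups (215), 9 bias-minimized Adults (191) and the 32 of the mir-80 series (207). Standard errors follow from the F statistic. The fits were tested on simulated data. Alternatives were DESeq2 1.42.0 size factors in edgeR, spike-in scaling (median of ratios), no filter, DESeq2's Wald test, the replicate number as a block, and leaving out each library. Same-numbered libraries deviated together in every pair (r over 0.1, lowest 0.515) in the cdb328 comparison of bias-minimized Adults alone, where the block changed no call.

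Hairpin positions came from Ensembl release 115, matched by symbol. Of 139 hairpins, 2 were not matched. All 6 arms are described, main arms were those with the higher mean CPM in a table, and the likeness rule took the 3 arms of highest r per main arm. The members and lists were chosen with earlier results of these data known.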

Additional observations from a re-analysis of the deposited data

Results flagged for a closer look

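The effect of cdb330 on mir-1829c-5p differed between L4 worms and Adults with NEBNext, which marked it for a closer look as a difference between stages. The interaction was 0.67 ± 0.21 (log2, Adult minus L4, edgeR's quasi-likelihood test, adjusted p of 0.0283). At L4 the mutant libraries were at 66.8, 66.9 and 76.2 CPM and those of wild type at 87.9, 91.7 and 81.7 CPM, and in Adults at 55.0, 53.1 and 54.8 against 36.5, 45.5 and 55.9 CPM, so the mutant was lower in all L4 libraries and overlapped in Adults. Over the alternatives the adjusted p ran up to 0.832, with spike-in scaling, which lowered this contrast by a median of 0.58 over all arms. The part of the spike-in difference between the stages in this result was not tested.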

How the results depend on the processing

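The number of mir-1829 arms called stayed within 1.5 times that reported for most settings. With spike-in scaling it fell to 1 (from 4) for cdb330 at L4, 1 (from 6) and 0 (from 2) for cdb328 against cdb330 at L4 and in Adults, 0 (from 1) for the stage difference of cdb330, 0 (from 3) for bias-minimized cdb328 Adults, 0 on each of the 6 mir-80 backgrounds and 1 (from 3) for the average over 5 of them, and rose to 2 (from 0) for the tagged groups. The stage difference of cdb330 gave 2 arms with no filter, with DESeq2's Wald test and with the replicate block. Bias-minimized cdb328 Adults gave 1 arm with no filter, mir-80(cdb496) 2 with DESeq2 size factors and mir-80(cdb495) 2 with the Wald test. With the replicate block no other count moved by over 1.5 times, and the replicate numbers paired the libraries in bias-minimized cdb328 Adults alone.

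Leaving out single libraries gave 3 to 5 arms for cdb328 at L4, 1 to 4 arms for cdb330 at L4, 2 to 4 for Adult against L4, 0 to 2 for the stage difference of cdb330, 5 to 6 and 1 to 3 for cdb328 against cdb330 at L4 and in Adults, 1 to 2 for bias-minimized cdb328 Adults, 0 to 1 on mir-80(cdb493), mir-80(cdb495) and mir-80(cdb496), 0 to 2 on mir-80(cdb494) and 1 to 3 on mir-80(cdb530). Where a library was left alone in its group, its spread was taken from the other groups of the fit.

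Signs turned with spike-in scaling for mir-1829b-3p* (0.021) and mir-1829c-5p (0.22) in cdb330 L4, mir-1829a-3p* between the stages (-0.72), mir-1829b-3p* (-0.38) and mir-1829c-3p* (-0.34) between the alleles at L4, mir-1829a-5p in the tagged groups (-0.70) and mir-1829b-5p in bias-minimized cdb328 Adults (-0.27). mir-1829a-5p, near 0 in cdb330 L4, was -0.058 with no filter and ran from -0.046 to 0.21 over left-out libraries. In the tagged groups it was -0.020 with DESeq2 size factors, -0.078 with no filter, -0.021 with the Wald test and -0.15 to 0.16 over left-out libraries, where mir-1829b-5p ran from -0.72 to 0.42. Left-out libraries also turned mir-1829a-3p* between the stages (-0.058 to 0.14), mir-1829c-5p on mir-80(cdb496) (-0.058 to 0.75) and mir-1829a-5p on mir-80(cdb530) (-0.063 to 1.63). These cover the 55 pairs of arm and comparison called in any setting. The cause was not tested. Depth limits mir-1829b-3p* and mir-1829c-3p* with bias-minimized adaptors, at 1 to 50 reads. The labels say nothing of the spike-ins.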
